A study of Mus musculus with 30 samples.

Results

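Fatty acid oxidation and ketone body formation were followed through 39 genes in the livers of 30 mice. The members were the rows of the deposited count table whose symbol was on a list of 39 genes for fatty acid activation, carnitine transfer, mitochondrial and peroxisomal beta-oxidation and ketone bodies, and all 39 were found among its 55450 rows. Each of 3 experiments held 5 *Cebpa* fl/fl males without Cre and 5 males with a hepatocyte deletion of *Cebpa*, the gene of the transcription factor C/EBP alpha, with 1 stranded poly(A) liver library per mouse. All 30 mice had been backcrossed to C57BL/6N and were fed HFCFD, a diet high in fat, cholesterol and fructose. The knockout of HFCFD2W, *Cebpa* ΔHep, carried albumin-Cre, which is active in hepatocytes without induction, and was compared after 2 weeks of diet. The knockouts of the other two experiments, *Cebpa* ΔHep,ERT2, carried albumin-ERT2-Cre, which acts only after tamoxifen. HFCFD8W+T10D stands for 8 weeks of diet with 10 days of tamoxifen. HFCFD12W+T10W stands for tamoxifen over the last 10 of 22 weeks of diet. In both, the tamoxifen label was shared by the *Cebpa* fl/fl controls. Fewer *Cebpa* ΔHep pups than littermates lived to weaning, so the constitutive knockouts were survivors. Between experiments, Cre line, diet time, tamoxifen and batch changed together and cannot be told apart. Ages at sampling are not given in the sources used here.

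Beta-oxidation shortens fatty acids by repeated cycles of oxidation, hydration, oxidation and thiolysis, after activation to acyl-CoA and, for long chains, carriage into mitochondria as carnitine esters. The electrons pass through a flavoprotein to the respiratory chain, and the acetyl-CoA of the fasting liver is made into ketone bodies for other organs. Peroxisomes take very long and branched chains and bile acid precursors, and C/EBP alpha is a hepatocyte transcription factor known for its place in liver lipid and glucose metabolism.

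The targeted gene separated the genotypes in every experiment. The level of *Cebpa* fell from 177 ± 17.6 to 4.74 ± 0.902 CPM (read counts as a share of the TMM-scaled library, mean ± SD, n = 5 mice per group) in HFCFD2W, from 144 ± 13.4 to 17.2 ± 5.92 CPM in HFCFD8W+T10D and from 114 ± 23.02 to 21.3 ± 1.98 CPM in HFCFD12W+T10W. Libraries held 7996123 to 10257347 counts, and 38 members had enough counts to be tested in each experiment. The exception was *Cpt1b*, the muscle isoform of the outer-membrane carnitine palmitoyltransferase, at a mean of 0.322 TPM (a share of all transcripts that takes gene length into account) or 0.664 TPM in *Cebpa* fl/fl livers of HFCFD2W and HFCFD8W+T10D. In these bulk livers, fewer hepatocytes and less RNA per hepatocyte cannot be told apart.

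In HFCFD12W+T10W knockouts 30 of the 38 tested members fell and 3 rose (edgeR quasi-likelihood test, Benjamini-Hochberg adjusted p under 0.05), where 23.8% of the 12463 genes tested were lower and 27.4% higher. Every step of the pathway held members that fell, from activation (*Acsl1*, *Acsm3*) through the carnitine shuttle (*Cpt1a*, *Cpt2*) and the dehydrogenases (*Acadvl*, *Acadm*) to peroxisomal thiolysis (*Acaa1a*, *Acaa1b*). The knockout values all lay below the control values for 30 of the 38, against 19.5% of all genes, and all above them for 0, against 19.6%. In HFCFD8W+T10D 8 members fell and 1 rose (6.85% and 10.3% of 11990 genes), and all 5 knockout mice were below all controls for 7 members (5.5% of all genes). In HFCFD2W 3 members fell and 2 rose (8.09% and 8.6% of 11068 genes), shares close to those of all genes, and 0 had all knockouts below all controls (6.12% of all genes). *Acsl1* and *Acaa1b* fell in all 3 experiments. *Acadsb*, *Acsm3*, *Acsm5*, *Eci1*, *Pex11a* and *Scp2* fell in both tamoxifen experiments. A further 22 members passed as lower in HFCFD12W+T10W and in no other experiment, and *Crot* in HFCFD2W and no other. Tests of these differences between experiments follow after the steps of the pathway. Falls over 2-fold were few, with *Acsl1* in HFCFD8W+T10D (2.01% of all genes were over 2-fold lower) and *Acsl1*, *Acsm3* and *Pex11a* in HFCFD12W+T10W (3.47%). In HFCFD2W, where 1.38% of all genes were over 2-fold lower with an adjusted p under 0.05, 0 members were. Rises over 2-fold were found for 0 members in any experiment, beside 1.69%, 4.09% and 14.3% of all genes in HFCFD2W, HFCFD8W+T10D and HFCFD12W+T10W.

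**Figure D1:**
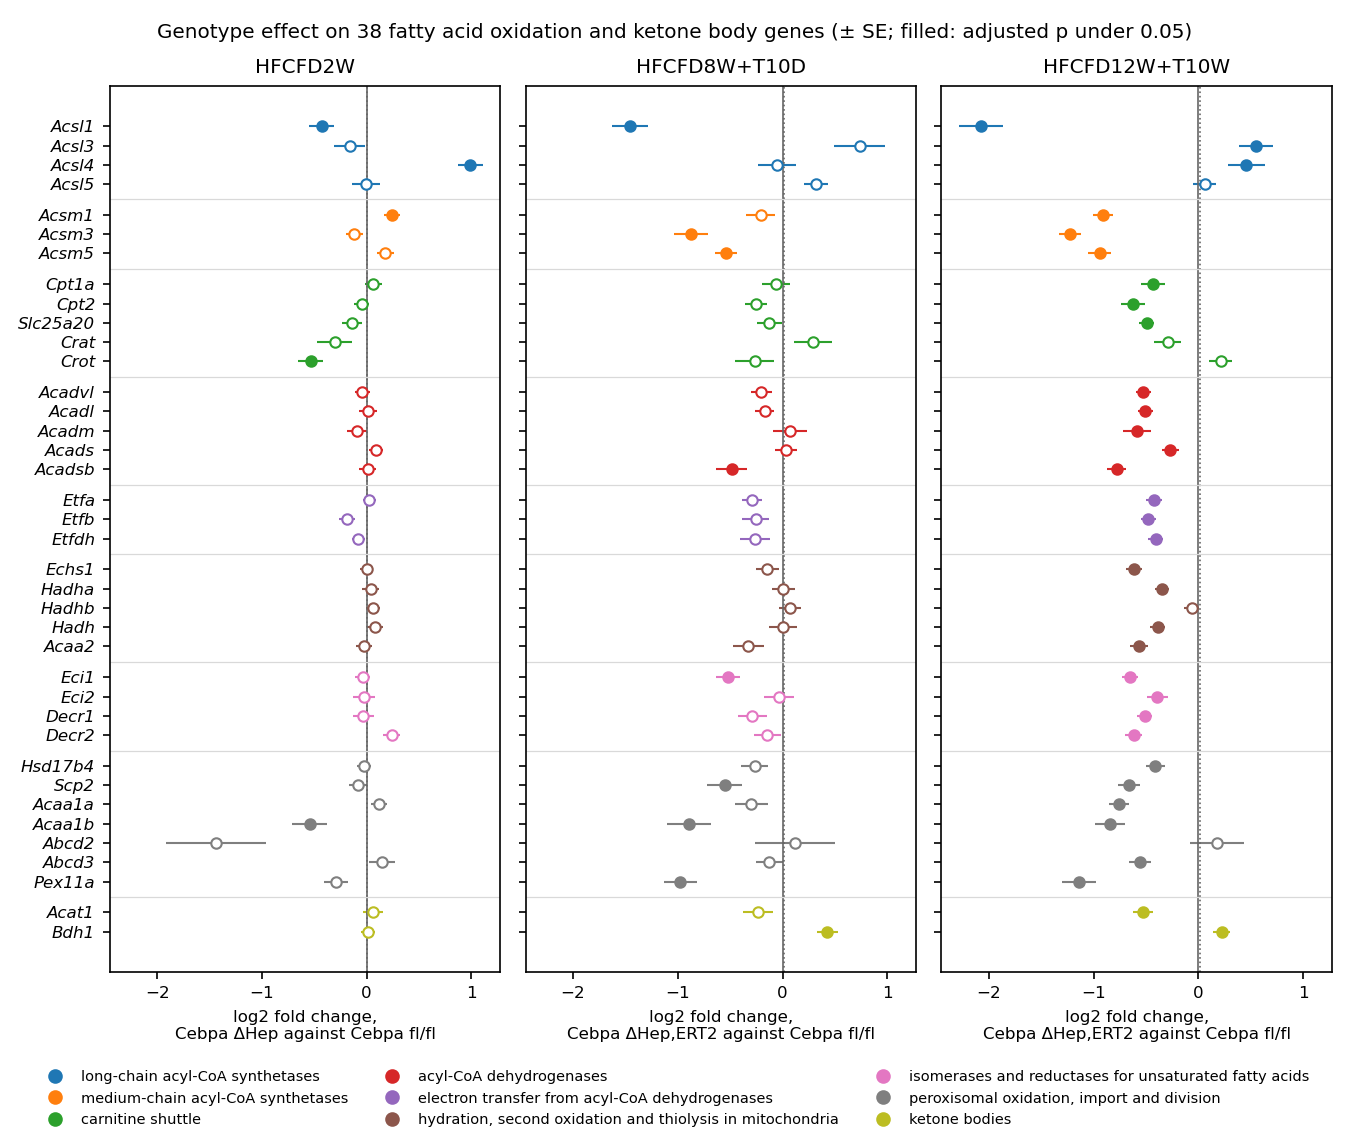
Log2 fold change of each of the 38 tested members (x axis, ± SE) in knockout against Cebpa fl/fl livers, 1 panel per experiment, with members grouped and coloured by step. Filled points had an adjusted p under 0.05, the dotted line is the median of all genes tested, and most filled points of HFCFD12W+T10W lie left of 0, where those of Hadha and Acads move right of 0 if libraries are scaled by their totals.

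The median log2 fold change of the 38 members was -0.51 in HFCFD12W+T10W, -0.21 in HFCFD8W+T10D and -0.03 in HFCFD2W, beside 0.01, 0.01 and 0.01 for all genes tested. Per mouse, the median over members of log2 CPM minus the control mean ran from -0.63 to -0.41 in HFCFD12W+T10W knockouts and from -0.10 to 0.13 in their controls. The genotypes did not overlap on this measure. In HFCFD8W+T10D it ran from -0.35 to 0.01 in knockouts and from -0.18 to 0.15 in controls, with knockout replicate 4, at 0.01, inside the control range. HFCFD2W knockouts, at -0.12 to 0.08, lay around their controls, at -0.04 to 0.05.

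**Figure D2:**
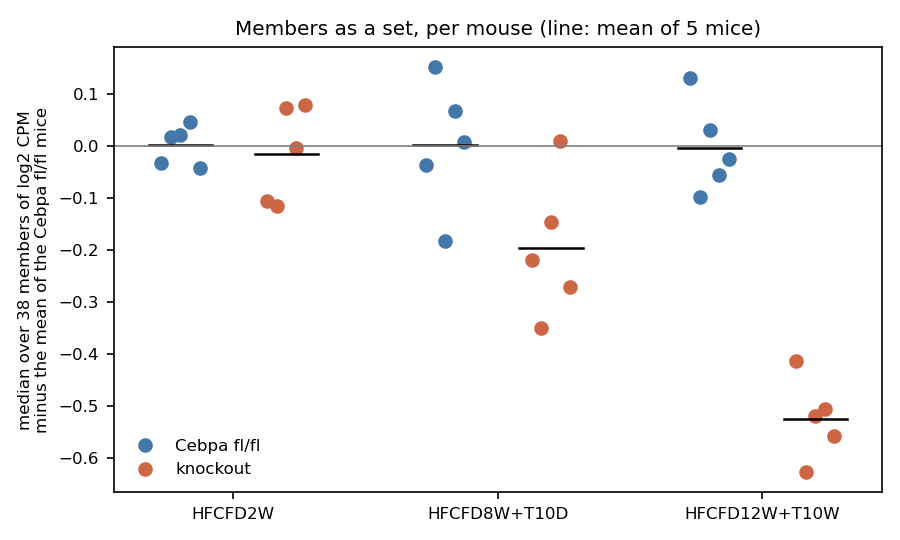
Median over 38 members of log2 CPM minus the mean of the Cebpa fl/fl mice of the same experiment (y axis, log2 units, TMM scaling), 1 point per mouse and a line at the mean of 5 mice. The 5 HFCFD12W+T10W knockouts sit between -0.63 and -0.41, below their controls, and 1 HFCFD8W+T10D knockout sits at 0.01.

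How far the members fell depended on the reference. TMM, which assumes that most genes do not change, gave factors of 1.29 to 1.38 for HFCFD12W+T10W knockouts and 0.961 to 1.03 for their controls. Scaling by library totals without these factors, an alternative chosen after seeing the data, moved the median of all genes to 0.38 in HFCFD12W+T10W, 0.19 in HFCFD8W+T10D and 0.03 in HFCFD2W. Members then fell in 14, 6 and 3 cases and rose in 6, 3 and 3. In the same order, 962 of 12463, 382 of 11990 and 698 of 11068 genes tested fell, and 7049, 2023 and 952 rose. The 14 of HFCFD12W+T10W came from 6 of the 9 steps, without the carnitine shuttle, electron transfer or ketone bodies. Of all genes called in HFCFD12W+T10W, 46.5% were lower with TMM and 12.01% with library totals, and in HFCFD8W+T10D 40.0% and 15.9%. The median of the members relative to that of all genes was -0.52 under either scaling in HFCFD12W+T10W. In HFCFD8W+T10D it was -0.22 with TMM and -0.23 with library totals. A change of scaling moves all genes by nearly the same amount, so this agreement was fixed in advance and is no check on the falls. The values that follow use TMM, so each is a change relative to the bulk of genes.

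**Figure D3:**
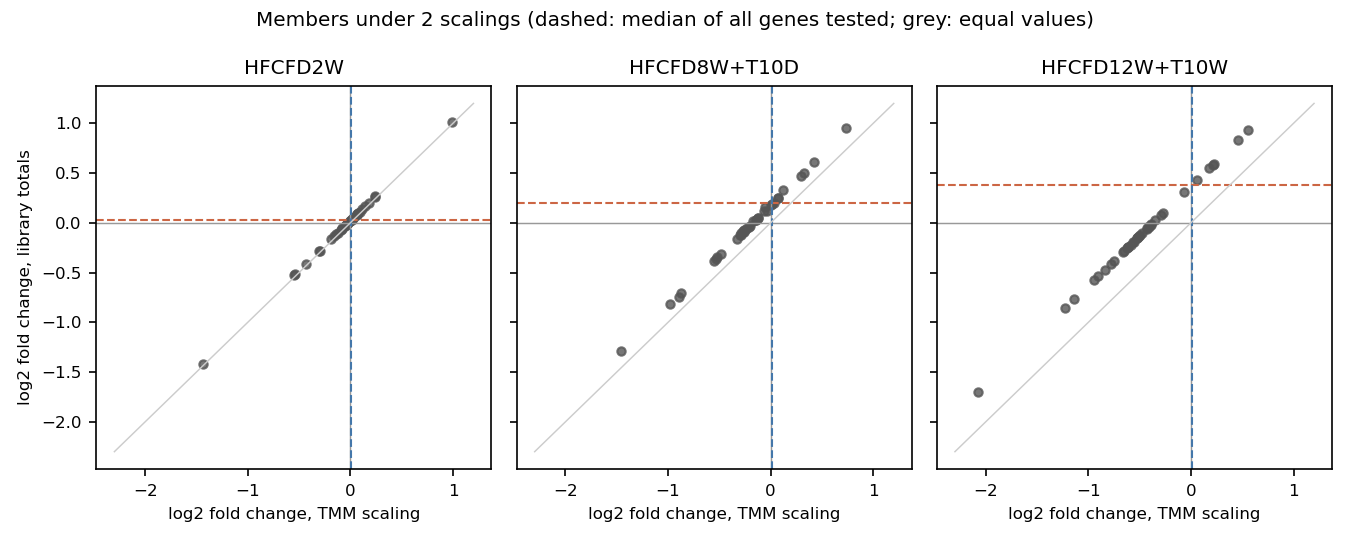
Log2 fold changes of the 38 members with TMM scaling (x axis) and with library totals (y axis), 1 panel per experiment, with dashed lines at the median of all genes tested and a grey line at equal values. In HFCFD12W+T10W the whole set of points lies above the grey line, and the median of all genes, at 0.38 on the y axis, moves with them.

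The start regions of members with the largest changes, and of a gene pair that shares one, are shown because the deleted factor binds DNA. Of the 39 members 32 had an entry, with 35 windows, in the RefSeq promoter table (GRCm38.p6), of which the 250 bases before the start were searched on both strands for the C/EBP core TTNNGNAA. At least 1 match was found for 14 of the 32 member genes, and 36.8% of all 32851 windows of this length held one. The former counts genes, some with more than 1 window, and the latter counts windows, so they are not on like units. The longer form TTNNGCAAT (1.93% of windows) and the direct repeat that nuclear receptors bind, AGGNCA written again after 1 base of any kind (0.338% of windows), were found for 0 members. The windows below read 5′ to 3′ along the strand of the gene, and capitals mark core matches on either strand. The upstream start of *Acsl1* (chr8:46470787-46471036, + strand) holds no match, while the downstream one (chr8:46490716-46490965, + strand), which lies within an intron of *Acsl1*, holds 2. *Acsl4* (chrX:142390536-142390785, - strand) holds none and *Acsm3* (chr7:119760673-119760922, + strand) holds 4. For *Pex11a* (chr7:79743184-79743381, - strand), with 1 match, the 52 bases nearest the start were left off because an exon of *Wdr93* lies there. The 85 bases between the divergent *Hadha* and *Hadhb* (chr5:30155163-30155247, shown on the + strand) hold none. The windows of *Hadha* and *Hadhb* in the table, which overlap, share 1 match outside these 85 bases, and both genes are among the 14. Windows not printed varied among members that fell. Those of *Acaa1b*, which fell in all 3 experiments, and of *Acsm5* and *Eci1*, which fell in both tamoxifen experiments, hold 0 matches. Those of *Acadsb* and *Scp2*, which also fell in both, hold 1 each. *Acsl3* and *Bdh1*, which rose in HFCFD12W+T10W, have 0. Whether matches go with the direction of change was not tested. A match is a run of letters and not a site shown to be bound.
Acsl1 upstream start: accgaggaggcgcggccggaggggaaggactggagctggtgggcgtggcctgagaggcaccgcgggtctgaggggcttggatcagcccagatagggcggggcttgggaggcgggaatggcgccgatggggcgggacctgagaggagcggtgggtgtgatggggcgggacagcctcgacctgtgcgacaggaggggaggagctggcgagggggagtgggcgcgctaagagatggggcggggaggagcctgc
Acsl1 downstream start: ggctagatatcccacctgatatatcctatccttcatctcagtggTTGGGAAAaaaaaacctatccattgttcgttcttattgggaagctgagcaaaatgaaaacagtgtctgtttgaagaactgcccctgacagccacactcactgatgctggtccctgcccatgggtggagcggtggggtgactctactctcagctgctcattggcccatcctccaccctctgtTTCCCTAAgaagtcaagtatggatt
Acsl4: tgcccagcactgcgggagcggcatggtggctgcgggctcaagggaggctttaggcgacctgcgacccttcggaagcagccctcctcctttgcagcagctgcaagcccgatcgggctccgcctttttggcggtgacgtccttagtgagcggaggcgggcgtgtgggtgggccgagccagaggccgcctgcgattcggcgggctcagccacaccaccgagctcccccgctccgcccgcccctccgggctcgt
Acsm3: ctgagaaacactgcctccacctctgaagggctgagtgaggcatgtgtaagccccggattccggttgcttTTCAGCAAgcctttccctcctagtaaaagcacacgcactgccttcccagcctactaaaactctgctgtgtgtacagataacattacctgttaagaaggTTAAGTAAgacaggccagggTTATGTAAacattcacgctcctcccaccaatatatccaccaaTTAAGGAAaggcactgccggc
Pex11a: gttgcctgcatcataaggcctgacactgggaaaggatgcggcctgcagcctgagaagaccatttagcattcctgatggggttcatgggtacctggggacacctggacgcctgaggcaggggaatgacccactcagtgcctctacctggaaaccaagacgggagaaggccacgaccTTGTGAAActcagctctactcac
Hadha and Hadhb: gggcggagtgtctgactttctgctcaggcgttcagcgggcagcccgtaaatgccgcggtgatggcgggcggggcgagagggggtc

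Long-chain acyl-CoA synthetases activate long fatty acids, and their members moved apart. In HFCFD12W+T10W 1 of 4 fell and 2 rose, in HFCFD8W+T10D 1 fell, and in HFCFD2W 1 fell and 1 rose. The major liver isoform *Acsl1* (chr8:46471037-46536051, + strand, GRCm38) stood at 1988, 1379, 1357, 1383 and 862 CPM in the 5 *Cebpa* fl/fl mice of HFCFD12W+T10W and at 347, 288, 395, 360.3 and 216 CPM in the 5 knockouts, log2 fold change -2.07 ± 0.21 (SE), adjusted p = 6.06e-06. Every knockout was far below every control. In HFCFD8W+T10D the controls held 944, 1298, 1155, 1338 and 1075 CPM and the knockouts 368, 303, 389, 519 and 519.7 CPM, log2 fold change -1.46 ± 0.17 (SE), adjusted p = 0.000151, again without overlap. In HFCFD2W the controls held 1167, 1511, 1427, 1404 and 1107 CPM and the knockouts 805, 875, 957, 1164 and 1107 CPM, log2 fold change -0.43 ± 0.12 (SE), adjusted p = 0.0297. There the genotypes overlapped, and the call was lost when any of 6 of the 10 mice was left out, with an adjusted p from 0.0559 to 0.0766.

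*Acsl4* (chrX:142317993-142390535, - strand), which prefers arachidonate and is low in healthy hepatocytes, moved the other way. Its HFCFD2W controls held 53.1, 46.7, 57.3, 68.2 and 57.6 CPM and its knockouts 110.3, 144, 97.8, 97.9 and 110.3 CPM, log2 fold change 0.99 ± 0.12 (SE), adjusted p = 0.000136, with no overlap, and it was the 1 member of that experiment whose knockouts all lay above the controls (6.34% of all genes). No such rise was seen in HFCFD8W+T10D, where *Acsl4* stood at 39.9 ± 7.87 CPM in controls and 37.96 ± 10.6 CPM in knockouts, log2 fold change -0.05 ± 0.18 (SE), adjusted p = 0.883. The HFCFD12W+T10W controls held 45.3, 37.1, 34.9, 64.0 and 29.96 CPM and the knockouts 46.5, 64.7, 62.5, 59.8 and 48.1 CPM, log2 fold change 0.46 ± 0.18 (SE), adjusted p = 0.0487. Control replicate 4, at 64.0 CPM, lay among the knockouts, and leaving out any of 7 mice gave an adjusted p from 0.0688 to 0.118. *Acsl3*, a lipid droplet isoform, held 14.4, 13.4, 18.5, 26.5 and 20.3 CPM in controls and 24.2, 29.9, 23.1, 27.1 and 28.4 CPM in knockouts of HFCFD12W+T10W, log2 fold change 0.55 ± 0.16 (SE), adjusted p = 0.0122, with a single control, replicate 4, inside the knockout range. In HFCFD8W+T10D its level was 17.4 ± 4.79 CPM in controls and 28.5 ± 10.6 CPM in knockouts, log2 fold change 0.74 ± 0.24 (SE), adjusted p = 0.0531, which did not pass. *Acsl5* did not pass in any experiment with TMM scaling, at log2 fold changes of -0.01, 0.32 and 0.06 in the order of the experiments, but was called higher with library totals in both tamoxifen experiments.

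Medium-chain acyl-CoA synthetases, mitochondrial enzymes that activate shorter chains and xenobiotic acids, fell together in HFCFD12W+T10W (3 of 3, median log2 fold change -0.94) and also with library totals. *Acsm3* (chr7:119760923-119787513, + strand) held 157, 132, 141, 129.6 and 126 CPM in the controls and 51.7, 48.5, 70.6, 58.7 and 54.8 CPM in the knockouts, log2 fold change -1.23 ± 0.10 (SE), adjusted p = 1.43e-06. In HFCFD8W+T10D it held 90.2, 108, 78.5, 125 and 119 CPM and 55.4, 39.5, 50.7, 67.7 and 69.7 CPM, log2 fold change -0.87 ± 0.17 (SE), adjusted p = 0.00411. The genotypes did not overlap in either experiment. In HFCFD2W the means were 101 ± 10.3 and 92.6 ± 5.69 CPM, log2 fold change -0.12 ± 0.08 (SE), adjusted p = 0.334. *Acsm5* went from 145 ± 20.5 to 73.1 ± 9.54 CPM in HFCFD12W+T10W, log2 fold change -0.94 ± 0.11 (SE), adjusted p = 1.94e-05, and from 94.8 ± 10.1 to 64.8 ± 7.55 CPM in HFCFD8W+T10D, log2 fold change -0.54 ± 0.10 (SE), adjusted p = 0.00486. *Acsm1*, the most abundant of the 3 per length, changed direction between experiments. In HFCFD2W its controls held 361, 344, 353, 395 and 358 CPM and its knockouts 418, 438, 449, 371 and 467 CPM, log2 fold change 0.24 ± 0.07 (SE), adjusted p = 0.0401, a rise whose groups overlapped and whose call was lost without any of 8 mice, with an adjusted p from 0.0556 to 0.0999. In HFCFD12W+T10W they held 442, 364, 377, 439.7 and 337 CPM and 225, 186, 212, 205 and 184 CPM, log2 fold change -0.91 ± 0.10 (SE), adjusted p = 8.26e-06, and the lowest control lay far above the highest knockout.

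The carnitine shuttle fell in 3 of 5 tested members in HFCFD12W+T10W with TMM scaling. *Cpt1a*, the outer-membrane carnitine palmitoyltransferase that sets the pace of entry in liver, held 780.4, 683, 698, 543 and 586 CPM in controls and 515, 464, 476, 519 and 392 CPM in knockouts, log2 fold change -0.43 ± 0.11 (SE), adjusted p = 0.00585. Its partner on the inner membrane, *Cpt2*, held 185, 168, 173, 120.3 and 178 CPM and 118, 89.8, 95.7, 114 and 103 CPM, log2 fold change -0.62 ± 0.12 (SE), adjusted p = 0.00066. For both genes all knockouts lay below all controls, by only a few CPM in the case of *Cpt2*, whose control replicate 4 stood apart from the other controls. The carrier between them, *Slc25a20*, went from 146 ± 9.27 to 101 ± 5.78 CPM, log2 fold change -0.49 ± 0.07 (SE), adjusted p = 6.84e-05. None of these 3 was called with library totals in HFCFD12W+T10W, nor with TMM in the other experiments. *Crot*, the carnitine transferase of peroxisomes, fell in HFCFD2W. There its controls held 722, 869, 609, 771 and 732 CPM and its knockouts 541, 397, 631, 486 and 497 CPM, log2 fold change -0.54 ± 0.12 (SE), adjusted p = 0.00931, with only knockout replicate 4 reaching into the control range. In HFCFD12W+T10W the means of *Crot* were 450.4 ± 40.2 and 506 ± 79.5 CPM, log2 fold change 0.21 ± 0.11 (SE), adjusted p = 0.124, which did not pass with TMM, while library totals gave a call in the higher direction. *Crat*, the carnitine acetyltransferase, did not pass in any experiment (log2 fold changes -0.31, 0.29 and -0.29).

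The acyl-CoA dehydrogenases take the first pair of electrons from chains of different length, and 5 of 5 fell in HFCFD12W+T10W (median log2 fold change -0.52), of which *Acadvl* and *Acadsb* fell also with library totals and *Acads* had a positive value there, 0.10. *Acadvl*, for very long chains, held 439, 388, 438, 460.5 and 423 CPM in controls and 298, 283, 289.8, 303 and 278 CPM in knockouts, log2 fold change -0.52 ± 0.07 (SE), adjusted p = 5.02e-05. *Acadl*, for long chains, went from 248 ± 20.4 to 169.8 ± 3.87 CPM, log2 fold change -0.51 ± 0.07 (SE), adjusted p = 8.82e-05. *Acadm*, for medium chains, held 423, 388, 505, 342 and 557 CPM in controls and 335, 263, 244, 298 and 290.1 CPM in knockouts, log2 fold change -0.59 ± 0.13 (SE), adjusted p = 0.0026. The 2 highest controls of *Acadm*, replicates 3 and 5, stood well above the others, and the highest knockout lay just under the lowest control. *Acads*, for short chains, went from 168 ± 19.4 to 135 ± 6.55 CPM, log2 fold change -0.27 ± 0.08 (SE), adjusted p = 0.0145. *Acadsb*, for short branched chains from isoleucine, showed the lowest fold change of the 5, from 143 ± 12.9 to 80.9 ± 9.34 CPM, log2 fold change -0.78 ± 0.09 (SE), adjusted p = 2.01e-05. It was the only dehydrogenase to fall in HFCFD8W+T10D, from 135, 174, 133, 149 and 132 CPM in controls to 81.1, 81.8, 96.3, 141 and 112 CPM in knockouts, log2 fold change -0.48 ± 0.15 (SE), adjusted p = 0.0406. There knockout replicate 4 lay among the controls and leaving out any of 8 mice gave an adjusted p from 0.0530 to 0.0987. In HFCFD2W 0 of the 5 passed edgeR's test, 0 had an unadjusted p under 0.05, 0 were called by DESeq2 or limma, and their fold changes lay between -0.09 and 0.09.

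Electron transfer from these enzymes runs through the flavoprotein of *Etfa* and *Etfb* and its oxidoreductase *Etfdh*. The 3 genes fell in HFCFD12W+T10W with TMM, and 0 of them was called with library totals. *Etfb*, the most abundant of the 3, went from 244 ± 18.7 to 169.7 ± 9.15 CPM, log2 fold change -0.48 ± 0.07 (SE), adjusted p = 0.00017. *Etfa* went from 276 ± 25.3 to 199 ± 11.2 CPM, log2 fold change -0.42 ± 0.08 (SE), adjusted p = 0.000654, and *Etfdh* from 247 ± 8.77 to 181 ± 14.9 CPM, log2 fold change -0.40 ± 0.07 (SE), adjusted p = 0.00042. All knockouts lay below all controls for each. In the other two experiments 0 of the 3 passed edgeR's test, 1 in each had an unadjusted p under 0.05, and DESeq2 and limma each called 1 in HFCFD8W+T10D, with fold changes from -0.19 to 0.03 in HFCFD2W and from -0.29 to -0.26 in HFCFD8W+T10D.

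Hydration, the later oxidation and thiolysis in mitochondria fell in 4 of 5 members in HFCFD12W+T10W, with *Hadhb* as the exception, and *Acaa2* and *Echs1* did so also with library totals. *Echs1*, the short-chain enoyl-CoA hydratase, held 265, 234, 237, 237 and 237 CPM in controls and 164, 139.7, 165, 160.0 and 137 CPM in knockouts, log2 fold change -0.61 ± 0.08 (SE), adjusted p = 3e-05. *Acaa2*, the medium-chain thiolase and the most abundant of the 5 per length, held 894, 743, 800.1, 871 and 760.3 CPM and 537, 500.1, 579, 572 and 483 CPM, log2 fold change -0.56 ± 0.09 (SE), adjusted p = 0.000143. Neither gene overlapped between genotypes. *Hadh*, the short-chain 3-hydroxyacyl-CoA dehydrogenase, went from 420.3 ± 28.8 to 312 ± 16.2 CPM, log2 fold change -0.39 ± 0.07 (SE), adjusted p = 0.000719.

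*Hadha* and *Hadhb* encode the alpha and beta subunits of the trifunctional protein, which are thought to assemble in equal numbers, and the genes lie head to head on chromosome 5 with 85 bases between their annotated starts. *Hadha* held 368, 348, 355, 354 and 344 CPM in HFCFD12W+T10W controls and 295, 261, 253, 291 and 250.1 CPM in knockouts, log2 fold change -0.35 ± 0.07 (SE), adjusted p = 0.00133, a fall that library totals turned to a positive value, 0.024. *Hadhb* held 259, 227, 245, 255 and 229 CPM and 245, 225, 211, 231 and 216 CPM, log2 fold change -0.06 ± 0.07 (SE), adjusted p = 0.471, and the genotypes overlapped. Library totals gave *Hadhb* a log2 fold change of 0.31 and a call. The ratio of the subunits, examined after their values were seen, does not depend on the scaling. On the log2 scale *Hadhb* over *Hadha* was -0.51, -0.61, -0.54, -0.48 and -0.58 in the controls and -0.27, -0.21, -0.26, -0.33 and -0.21 in the knockouts, a difference of 0.29 between means of -0.54 ± 0.06 and -0.26 ± 0.05 (SD, n = 5). All knockouts were above all controls. This is a description, with no test, because the pair was chosen for the values of *Hadhb*. The difference was 0.07 in HFCFD8W+T10D and 0.03 in HFCFD2W, where the genotypes overlapped.

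**Figure D4:**
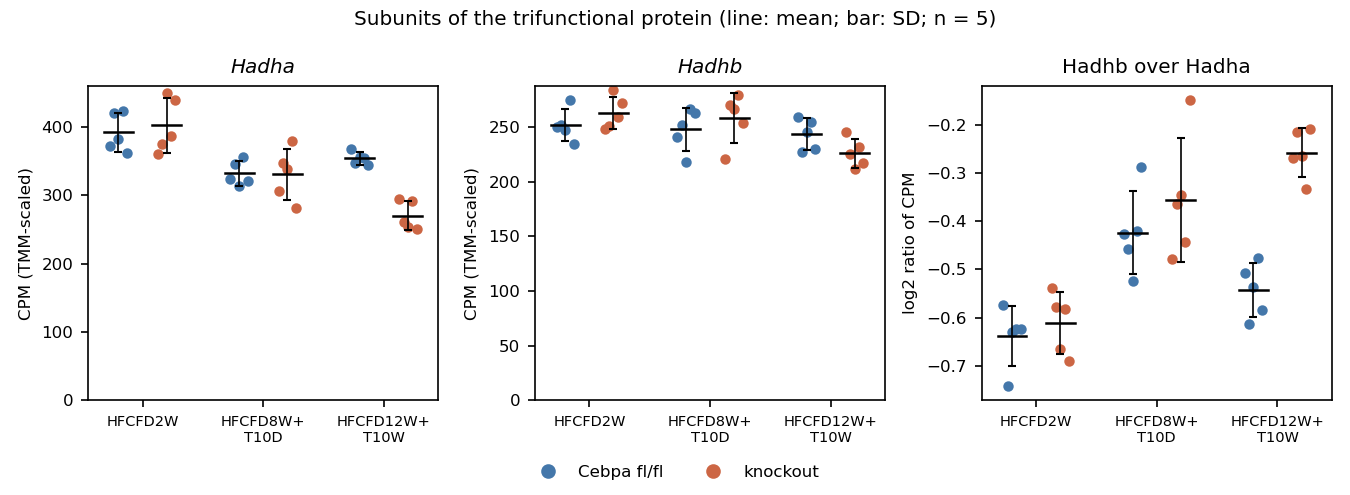
CPM of Hadha and of Hadhb and the log2 ratio of Hadhb to Hadha (y axes) in the 6 groups, with 1 point per mouse, the mean as a line and the SD as a bar (n = 5). In HFCFD12W+T10W the ratio runs from -0.61 to -0.48 in controls and from -0.33 to -0.21 in knockouts, and the ratio is the same under any scaling of libraries, whereas the fall of Hadha turns to 0.024 with library totals.

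The isomerases and reductases that prepare double bonds for beta-oxidation fell 4 of 4 in HFCFD12W+T10W, *Eci1* and *Decr2* also with library totals. *Eci1*, the mitochondrial enoyl-CoA isomerase, held 117, 95.2, 116, 98.2 and 109.6 CPM in controls and 70.8, 61.9, 64.8, 70.2 and 63.1 CPM in knockouts, log2 fold change -0.65 ± 0.08 (SE), adjusted p = 2.01e-05. In HFCFD8W+T10D it held 103, 111, 87.2, 114 and 128 CPM and 67.9, 72.1, 72.7, 90.8 and 72.7 CPM, log2 fold change -0.52 ± 0.12 (SE), adjusted p = 0.00958, with knockout replicate 4 above the lowest control. *Decr2*, the peroxisomal 2,4-dienoyl-CoA reductase, went from 238 ± 17.2 to 151 ± 13.5 CPM in HFCFD12W+T10W, log2 fold change -0.62 ± 0.08 (SE), adjusted p = 4.72e-05. In HFCFD2W its means were 213 ± 8.48 and 250.3 ± 25.8 CPM, log2 fold change 0.24 ± 0.08 (SE), adjusted p = 0.0544, just short of the threshold in the higher direction. *Decr1*, the mitochondrial reductase, went from 282 ± 9.27 to 192 ± 15.3 CPM in HFCFD12W+T10W, log2 fold change -0.51 ± 0.07 (SE), adjusted p = 7.36e-05, and *Eci2*, the most abundant of the 4 per length, from 218 ± 31.3 to 161 ± 9.09 CPM, log2 fold change -0.39 ± 0.10 (SE), adjusted p = 0.00461. Neither of these was called with library totals.

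The peroxisomal members fell in 6 of 7 cases in HFCFD12W+T10W (median log2 fold change -0.66, and -0.29 with library totals) and in 3 of 7 in HFCFD8W+T10D. *Pex11a* (chr7:79735957-79743131, - strand), which drives peroxisome division, held 136, 122, 156, 123 and 193 CPM in controls and 60.4, 48.9, 53.3, 72.8 and 86.6 CPM in knockouts of HFCFD12W+T10W, log2 fold change -1.14 ± 0.17 (SE), adjusted p = 0.000103. In HFCFD8W+T10D it held 107, 127, 92.3, 139 and 161 CPM and 62.0, 49.4, 72.6, 74.8 and 56.5 CPM, log2 fold change -0.98 ± 0.16 (SE), adjusted p = 0.00142. No knockout reached the control range in either experiment. HFCFD2W controls held 57.1, 58.1, 63.1, 52.4 and 56.0 CPM and knockouts 36.5, 41.1, 44.3, 55.0 and 56.9 CPM, log2 fold change -0.29 ± 0.12 (SE), adjusted p = 0.0988, which did not pass.

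*Acaa1b* (chr9:119148023-119157093, - strand) and *Acaa1a* (chr9:119339676-119350299, + strand) encode closely related peroxisomal thiolases, so the split of reads between them is uncertain. *Acaa1b* held 1806, 1439, 1829, 1155 and 1877 CPM in controls and 988, 804, 859.9, 988 and 748 CPM in knockouts of HFCFD12W+T10W, log2 fold change -0.84 ± 0.14 (SE), adjusted p = 0.000282, and 1379, 1786, 1133, 1397 and 1439 CPM and 677, 458, 941, 1079.9 and 652 CPM in HFCFD8W+T10D, log2 fold change -0.89 ± 0.21 (SE), adjusted p = 0.0138. Both experiments separated the genotypes without overlap. In HFCFD2W it held 1179, 1623, 1264, 1161 and 1491 CPM and 634, 719, 992, 1178 and 1076 CPM, log2 fold change -0.55 ± 0.17 (SE), adjusted p = 0.0404. There knockout replicate 5 lay inside the control range, and leaving out any of 6 mice gave an adjusted p from 0.0570 to 0.0999. *Acaa1a* fell in HFCFD12W+T10W, from 331 ± 39.9 to 190.5 ± 17.3 CPM, log2 fold change -0.75 ± 0.10 (SE), adjusted p = 3.71e-05.

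*Scp2*, whose products are a peroxisomal thiolase for branched chains and a sterol carrier protein, was the most abundant member by TPM in every group. It held 4762, 3943, 3803, 4043 and 3279.7 CPM in controls and 2589.6, 2321, 2557, 2479.6 and 2209 CPM in knockouts of HFCFD12W+T10W, log2 fold change -0.66 ± 0.10 (SE), adjusted p = 0.00018. In HFCFD8W+T10D it held 4417, 5551, 4332, 4845 and 4034 CPM and 3267, 2323, 3163, 3870.0 and 3026 CPM, log2 fold change -0.55 ± 0.17 (SE), adjusted p = 0.0402. Both showed no overlap, although leaving out any of 9 mice took the HFCFD8W+T10D call to an adjusted p from 0.0518 to 0.0907. *Hsd17b4*, the peroxisomal multifunctional enzyme, went from 538 ± 36.9 to 393 ± 41.8 CPM in HFCFD12W+T10W, log2 fold change -0.41 ± 0.09 (SE), adjusted p = 0.00169, and *Abcd3*, the transporter of long and branched chains, from 742 ± 78.9 to 488 ± 64.4 CPM, log2 fold change -0.56 ± 0.11 (SE), adjusted p = 0.000766. Neither was called with library totals. *Abcd2*, a transporter of very long chains, did not pass between genotypes in any experiment. Its HFCFD2W controls held 0.593, 7.12, 3.49, 2.48 and 2.41 CPM and its knockouts 0.827, 1.01, 1.49, 1.02 and 1.61 CPM, log2 fold change -1.44 ± 0.48 (SE), adjusted p = 0.0555.

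The ketone body members moved in opposite directions. *Bdh1* (chr16:31422280-31458901, + strand), the dehydrogenase that turns acetoacetate into beta-hydroxybutyrate, held 237, 197, 197, 223 and 201 CPM in controls and 289, 285, 301, 273 and 257 CPM in knockouts of HFCFD8W+T10D, log2 fold change 0.43 ± 0.10 (SE), adjusted p = 0.013, and was the 1 member whose knockouts all lay above the controls there (6.01% of all genes). In HFCFD12W+T10W it held 289, 253, 274, 223 and 249.7 CPM and 309, 309, 283, 292 and 266 CPM, log2 fold change 0.22 ± 0.08 (SE), adjusted p = 0.0383. The groups overlapped in that experiment and leaving out any of 7 mice gave an adjusted p from 0.0536 to 0.0976. The rise held with library totals in both. In HFCFD2W its means were 278 ± 12.98 and 280.4 ± 17.9 CPM, log2 fold change 0.02 ± 0.07 (SE), adjusted p = 0.903. *Acat1*, the mitochondrial acetoacetyl-CoA thiolase, fell in HFCFD12W+T10W from 514 ± 56.1 to 346 ± 35.2 CPM, log2 fold change -0.53 ± 0.10 (SE), adjusted p = 0.000584, and was not called with library totals.

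**Figure D5:**
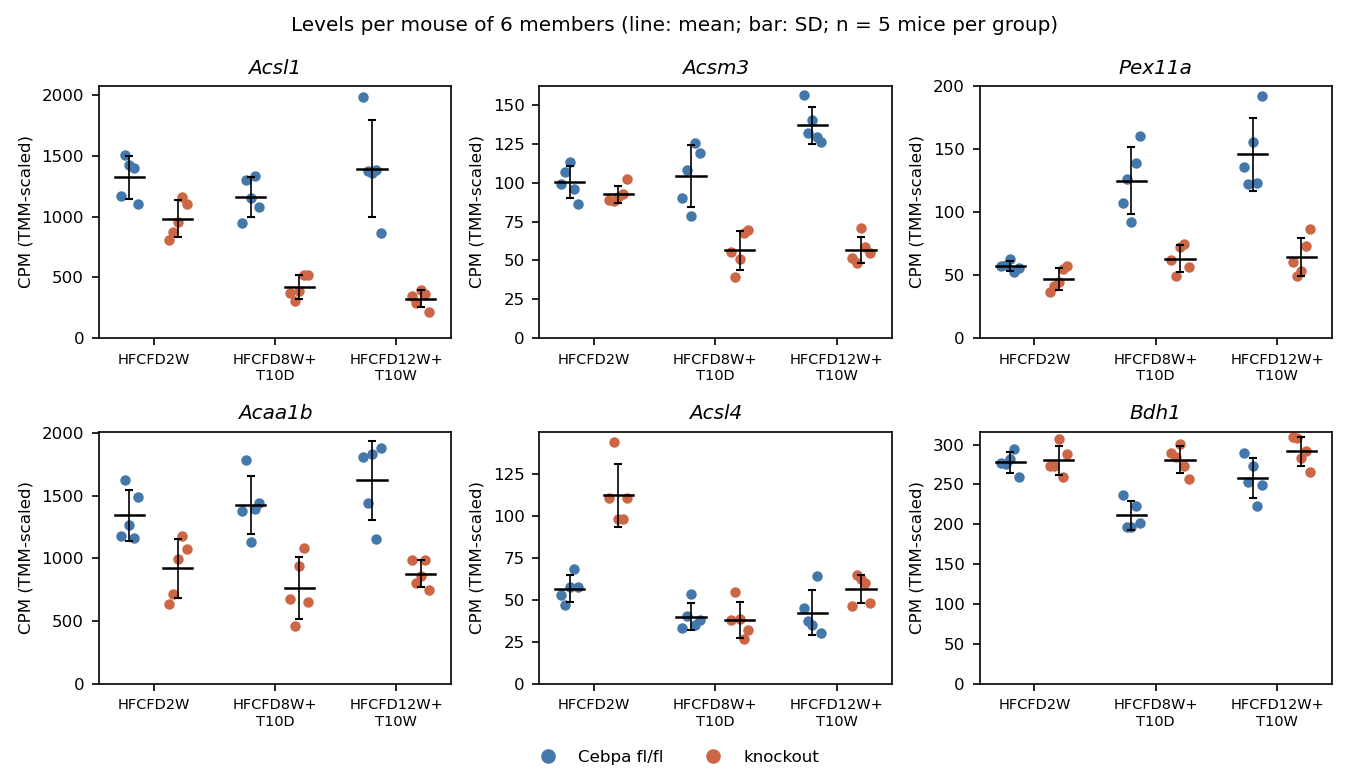
CPM with TMM scaling (y axes, from 0) of Acsl1, Acsm3, Pex11a, Acaa1b, Acsl4 and Bdh1 in the 6 groups, with 1 point per mouse, the mean as a line and the SD as a bar (n = 5). Acsl1, Acsm3, Pex11a and Acaa1b knockouts lie below all controls in both tamoxifen experiments, Acsl4 is raised without overlap in HFCFD2W, and no direction named here changed with library totals.

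Between genes the levels differed far more than between genotypes. On the TPM scale *Scp2* led in every group, at 3876, 3933 and 3864 TPM in the controls and 4008, 3627 and 3164 TPM in the knockouts, in the order of the experiments. Next came *Acaa1b* and *Acaa2*, whose order changed with the genotype in HFCFD2W. *Acaa1b* stood at 839 TPM and *Acaa2* at 705 TPM in controls, and they stood at 619.8 and 747 TPM in knockouts, where they differed by less than the SD of *Acaa1b*. *Etfb* was the fourth in every group, at 439 to 534 TPM. *Acsl1* was the fifth in the controls of every experiment, at 332, 346 and 456 TPM. The lowest tested member in every group was *Abcd2*, at a mean of 0.220 to 6.81 TPM. Together the members held 1.23% of all TPM in HFCFD12W+T10W controls (range 1.11 to 1.31%) and 1.05% in knockouts (range 1.00 to 1.10%), ranges that did not overlap. The shares were 1.09% and 1.01% in HFCFD8W+T10D and 1.02% and 1.04% in HFCFD2W, with overlap. Abundant genes weigh most in such a sum. In HFCFD12W+T10W *Scp2* went from 3864 to 3164, *Acaa1b* from 1322 to 949 and *Acsl1* from 456 to 140 TPM. By step, the carnitine shuttle, from 628 to 691 TPM, and ketone bodies, from 379 to 448 TPM, had higher means in knockouts, with overlap. The means of the other steps were lower. A TPM is a share of the library, without TMM factors, and so moves with what other genes take of it. With library totals the median log2 fold change of all genes was 0.38 in HFCFD12W+T10W. The share of a typical gene was thus higher in these knockouts, and the rises of the carnitine shuttle and ketone bodies include that shift.

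The size of the genotype effect differed between experiments for 30 members, as interactions in 1 fit of all 30 libraries that share their groups between tests. From HFCFD2W to HFCFD12W+T10W the effect was more negative for 27 members and more positive for 1 (17.3% and 13.4% of 12964 genes). *Acsl1* differed by -1.69 ± 0.26 (SE, adjusted p = 2.22e-05), *Acsm1* by -1.20 ± 0.15 (SE, adjusted p = 2.62e-06), *Acsm5* by -1.16 ± 0.15 (SE, adjusted p = 2.14e-06), *Decr2* by -0.90 ± 0.14 (SE, adjusted p = 3.3e-05) and *Acaa1a* by -0.91 ± 0.17 (SE, adjusted p = 0.000229). The 1 positive difference was that of *Crot*, 0.70 ± 0.22 (SE, adjusted p = 0.0136). From HFCFD2W to HFCFD8W+T10D 9 members had a more negative effect and 1 a more positive one (6.79% and 4.45%). *Acsl4* differed by -1.05 ± 0.25 (SE, adjusted p = 0.00687), *Acsl1* by -1.04 ± 0.25 (SE, adjusted p = 0.008) and *Acsm3* by -0.77 ± 0.18 (SE, adjusted p = 0.00676), while *Bdh1* differed by 0.40 ± 0.11 (SE, adjusted p = 0.0153). From HFCFD8W+T10D to HFCFD12W+T10W 8 members had a more negative effect and 0 a more positive one (5.49% and 4.97%), with 1 more positive at an unadjusted p under 0.05 and 0 by DESeq2. All but the peroxisomal *Decr2* encode mitochondrial enzymes, as most of the members tested do. Among the 8 were *Acadm*, -0.69 ± 0.20 (SE, adjusted p = 0.0234), *Echs1*, -0.50 ± 0.12 (SE, adjusted p = 0.00709), and *Acsm1*, -0.73 ± 0.15 (SE, adjusted p = 0.0031). With library totals the more negative counts were 8, 4 and 1 in place of 27, 9 and 8, beside 617, 384 and 163 of 12964 genes. The count of 8 also depended on single mice, falling to 2 without control replicate 3 of either tamoxifen experiment and reaching 13 without knockout replicate 2 of HFCFD8W+T10D.

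The *Cebpa* fl/fl livers also differed between experiments. From HFCFD2W to HFCFD8W+T10D 8 members were higher and 12 lower (22.2% and 21.5% of 12964 genes), and the share that was higher was close to that of all genes. With library totals 11 were higher and 4 lower, beside 4179 and 1308 of 12964 genes. *Abcd2* had the highest log2 difference, from 3.22 ± 2.42 to 9.10 ± 5.32 CPM, 1.498 ± 0.43 (SE, adjusted p = 0.00542). *Pex11a* rose from 57.3 ± 3.89 to 125 ± 26.8 CPM, 1.13 ± 0.16 (SE, adjusted p = 3.24e-06), and *Crat* from 31.1 ± 7.86 to 53.9 ± 18.7 CPM, 0.80 ± 0.18 (SE, adjusted p = 0.000651). *Acsm5* fell from 149 ± 5.32 to 94.8 ± 10.1 CPM, -0.66 ± 0.10 (SE, adjusted p = 1.11e-05), *Acsl5* from 420.2 ± 51.0 to 274 ± 25.5 CPM, -0.62 ± 0.12 (SE, adjusted p = 0.000204), and *Bdh1* from 278 ± 12.98 to 211 ± 18.2 CPM, -0.39 ± 0.08 (SE, adjusted p = 0.000139). From HFCFD8W+T10D to HFCFD12W+T10W 8 members were higher and 0 lower (6.31% and 5.12%, with 0 lower at an unadjusted p under 0.05 and 0 by DESeq2), among them *Abcd2*, at 20.7 ± 9.81 CPM in HFCFD12W+T10W and with a log2 difference of 1.19 ± 0.35 (SE, adjusted p = 0.0266), *Acsm5*, 0.61 ± 0.10 (SE, adjusted p = 0.000222), *Cpt1a*, 0.53 ± 0.11 (SE, adjusted p = 0.00205), and *Decr2*, 0.45 ± 0.10 (SE, adjusted p = 0.00295). The call of *Abcd2* was lost without control replicate 3 or 4 of HFCFD8W+T10D or control replicate 3 or 5 of HFCFD12W+T10W. Of these 8 calls 5 were lost without some mouse, and the count was 4 without control replicate 3 of HFCFD8W+T10D or control replicate 1 or 3 of HFCFD12W+T10W and 5 without control replicate 5 of the latter.

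Of 47 further genes of the pathway 46 were in the files, and *Tmlhe* is not analysed here. In HFCFD12W+T10W 29 of 46 were lower and 3 higher (median log2 fold change -0.46), beside 23.8% and 27.4% of all genes tested. With library totals 13 were lower and 9 higher (median -0.09), beside 962 and 7049 of 12463 genes. In HFCFD8W+T10D 5 of 46 were lower and 5 higher (median -0.16, turning to 0.01 with library totals), beside 6.85% and 10.3% of all genes. The share that was higher there was close to that of all genes. In HFCFD2W 5 of 45 were lower and 10 higher (median 0.02), beside 8.09% and 8.6% of all genes. Among those over 2-fold, the peroxisomal *Hacl1*, a lyase of alpha-oxidation, went from 232 ± 54.3 to 68.6 ± 10.6 CPM in HFCFD12W+T10W, log2 fold change -1.72 ± 0.16 (SE), adjusted p = 3.45e-06, and *Pecr*, a trans-2-enoyl-CoA reductase, from 134 ± 12.97 to 53.0 ± 2.70 CPM, log2 fold change -1.30 ± 0.08 (SE), adjusted p = 1.15e-07. The very long-chain and bile acid synthetases *Slc27a2* and *Slc27a5* had log2 fold changes of -1.10 and -1.39, and the mitochondrial deacylase *Sirt3* -1.06. *Oxct1*, the ketolytic transferase of which hepatocytes hold little, rose from 5.11 ± 0.994 to 18.2 ± 1.56 CPM, log2 fold change 1.87 ± 0.13 (SE), adjusted p = 3.37e-07. *Acacb*, which makes the malonyl-CoA that inhibits the carnitine palmitoyltransferase of *Cpt1a*, rose from 60.9 ± 20.4 to 140.3 ± 57.1 CPM in HFCFD2W, log2 fold change 1.21 ± 0.26 (SE), adjusted p = 0.0084, and from 60.8 ± 26.7 to 131 ± 37.5 CPM in HFCFD8W+T10D, log2 fold change 1.11 ± 0.28 (SE), adjusted p = 0.0179. In HFCFD2W *Lpin1*, a phosphatidate phosphatase and transcriptional coactivator, rose from 181 ± 99.2 to 785 ± 205 CPM, log2 fold change 2.12 ± 0.37 (SE), adjusted p = 0.00213, and the fatty acid translocase *Cd36* fell from 59.1 ± 23.01 to 28.4 ± 9.86 CPM, log2 fold change -1.06 ± 0.27 (SE), adjusted p = 0.0184.

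Markers of other liver cells moved with the same groups. Of all genes tested, 27.4%, 10.3% and 8.6% were higher and 23.8%, 6.85% and 8.09% lower in HFCFD12W+T10W, HFCFD8W+T10D and HFCFD2W. In HFCFD12W+T10W 8 of 8 stellate cell and myofibroblast markers were higher in knockouts, their summed level ran from 274 to 347 CPM in controls and from 1209 to 1497 CPM in knockouts, and 6 of 8 macrophage and 5 of 5 tested cholangiocyte markers were higher. There 3 of 3 tested lymphocyte markers were also higher, 2 of 6 endothelial markers were lower, with 3 of 6 higher and 0 lower under library totals, and of 4 adipocyte markers *Cfd* alone was tested and was lower, with a log2 fold change of -4.74 and of -4.23 in HFCFD8W+T10D, while the other 3 had 0 counts in every mouse. In HFCFD8W+T10D 3 of 8 stellate, 5 of 8 macrophage, 2 of 4 tested cholangiocyte and 1 of 2 tested lymphocyte markers were higher and 1 of 6 endothelial markers was lower. In HFCFD2W 0 of 8 stellate and 3 of 7 macrophage markers were higher. Of 10 hepatocyte markers 4, 3 and 0 were lower in HFCFD12W+T10W, HFCFD8W+T10D and HFCFD2W and 0 higher, with medians of -0.13, -0.19 and 0.09, of which the first turned to 0.24 with library totals, when 5 of the 10 were higher and 4 lower. Their summed level ran from 111687 to 137474 CPM in HFCFD12W+T10W controls and from 74194 to 82715 CPM in knockouts. The difference of the sum lay in *Alb*, whose mean went from 77476 to 35044 CPM. The other 9 summed to 41982 to 49461 CPM in controls and 42751 to 47963 CPM in knockouts, which overlapped. Among these 9, *Cps1*, *Hnf4a* and *Fgb* were nevertheless lower, with log2 fold changes of -1.39, -0.96 and -0.61. The abundant *Trf*, which did not pass, went from a mean of 17946 to 20586 CPM and offset them in the sum. All 10 had enough counts to be tested in each experiment. The 6 striated muscle markers, whose cells use *Cpt1b*, summed to at most 0.827 CPM in any mouse. The part of these shifts in the values of the members was not tested.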

How the data were processed

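Liver poly(A) RNA of 30 male mice, labelled Cre- (*Cebpa* fl/fl) or Cre+ (knockout) in 3 experiments, was read as 1 library per mouse. Per the labels and the submitters' processing notes, the authors used Trimmomatic 0.36, STAR 2.5.1, Picard 1.84, RSEM 1.2.22, DESeq2 and the mm10 build, and deposited RSEM expected counts per gene without normalization and TPM values. The expected counts of the single files and of the combined table differed by 0, and 3.251% of them were not whole, because RSEM splits reads that fit several genes, which leaves close relatives such as *Acaa1a* and *Acaa1b* uncertain. The authors also deposited normalized signal values (counts scaled by TMM) of 15010 genes that passed a filter of theirs, which served as an alternative, and a table of FPKM and RPKM values was not used. All 55450 identifiers are those of GENCODE M21 (GRCm38).

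Expected counts were rounded. With R 4.3.3 and edgeR 4.0.16, genes were filtered with filterByExpr on genotype, libraries were scaled by TMM, and the genotypes of an experiment were compared with glmQLFTest, adjusting over every gene tested after Benjamini and Hochberg. A gene rose or fell at an adjusted p under 0.05. Interactions and comparisons of *Cebpa* fl/fl groups came from 1 fit of 30 libraries (12964 genes). The ratio of *Hadhb* to *Hadha* is described without a test. CPM use TMM factors over all 30 libraries. Genes are compared by TPM.

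The members, the lists and the tests were chosen with earlier results of these data known. Values were given for members over 2-fold with an adjusted p under 0.05 between genotypes or *Cebpa* fl/fl groups, for the member with the highest TPM of each step and for members whose genotype effect differed between experiments. Of other pathway genes those over 2-fold were named. Alternatives were upper quartile, RLE and, added after seeing the data, library-total scaling, no filter, the authors' filtered genes, robust fitting, DESeq2 1.42.0, limma 3.58.1 on the authors' TMM-normalized counts with a pseudocount of 1, a joint fit, the replicate number as a block, stricter thresholds and leaving out each mouse. Totals ran from 7996123 to 10257347 counts. The labels give biological replicates, so p-values measure the spread between mice. The edgeR fits were also run on simulated counts with known changes. Those counts held no shift between libraries like the one seen in HFCFD12W+T10W, so they cannot judge the choice of scaling.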

Additional observations from a re-analysis of the deposited data

Results flagged for a closer look

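The genotype effect of 30 members differed between experiments in 46 tests of the difference itself (edgeR interaction, adjusted p under 0.05), and each value that follows is a difference of log2 fold changes. From HFCFD2W to HFCFD8W+T10D the effect differed by -1.04 for *Acsl1*, -1.05 for *Acsl4*, -0.46 for *Acsm1*, -0.77 for *Acsm3*, -0.73 for *Acsm5*, -0.50 for *Acadsb*, -0.33 for *Etfa*, -0.49 for *Eci1* and -0.70 for *Pex11a*, and by 0.40 for *Bdh1*. From HFCFD8W+T10D to HFCFD12W+T10W it differed by -0.73 for *Acsm1*, -0.35 for *Acadvl*, -0.36 for *Acadl*, -0.69 for *Acadm*, -0.50 for *Echs1*, -0.38 for *Hadha*, -0.42 for *Hadh* and -0.50 for *Decr2*.

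From HFCFD2W to HFCFD12W+T10W the differences of the activating enzymes and the shuttle were -1.69 for *Acsl1*, -1.20 for *Acsm1*, -1.15 for *Acsm3*, -1.16 for *Acsm5*, -0.54 for *Cpt1a*, -0.62 for *Cpt2*, -0.40 for *Slc25a20* and 0.70 for *Crot*. Those of the mitochondrial cycle were -0.52 for *Acadvl*, -0.56 for *Acadl*, -0.54 for *Acadm*, -0.40 for *Acads*, -0.83 for *Acadsb*, -0.49 for *Etfa*, -0.37 for *Etfdh*, -0.66 for *Echs1*, -0.43 for *Hadha*, -0.51 for *Hadh*, -0.58 for *Acaa2*, -0.65 for *Eci1* and -0.52 for *Decr1*. Those of the remaining enzymes were -0.90 for *Decr2*, -0.42 for *Hsd17b4*, -0.62 for *Scp2*, -0.91 for *Acaa1a*, -0.75 for *Abcd3*, -0.88 for *Pex11a* and -0.63 for *Acat1*. Cre line, diet time, tamoxifen and batch cannot be told apart in these differences.

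In 9 of 229 groups of 5 mice 1 mouse stood apart from the other 4, and by chance about 1 in 20 groups shows this. The high mice were *Cpt2* in HFCFD2W knockout replicate 6 (174 CPM), *Acadl* in HFCFD2W control replicate 3 (192 CPM), *Acadsb* in HFCFD2W control replicate 4 (197 CPM), *Etfb* in HFCFD12W+T10W knockout replicate 3 (185 CPM), *Echs1* in HFCFD12W+T10W control replicate 1 (265 CPM), *Eci1* in HFCFD8W+T10D knockout replicate 4 (90.8 CPM) and *Acat1* in HFCFD2W control replicate 3 (389 CPM). The low mice were *Cpt1a* in HFCFD8W+T10D knockout replicate 5 (324 CPM) and *Cpt2* in HFCFD12W+T10W control replicate 4 (120 CPM).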

How the results depend on the processing

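The median of the members in HFCFD12W+T10W stayed negative under every alternative run, and its size depended on the scaling. With library totals the members that fell numbered 14 in place of 30 and those that rose 6 in place of 3, with a median log2 fold change of -0.14 in place of -0.51, and the values of *Acads* and *Hadha* turned to 0.10 and 0.024. The authors' genes, limma and the joint fit each gave 1 that rose, an adjusted p under 0.01 gave 0, and a fold change over 2 gave 3 that fell and 0 that rose. In HFCFD8W+T10D library totals gave a median of -0.035 in place of -0.21 and 3 that rose in place of 1, as did DESeq2. Upper quartile scaling, no low-count filter and the joint fit gave 2 that rose, the joint fit 16 that fell in place of 8, a p under 0.01 gave 5 that fell and 0 that rose, and a fold change over 2 gave 1 and 0. In HFCFD2W limma, the joint fit and a p under 0.01 gave 1 that fell in place of 3, the absence of a filter, the authors' genes, the joint fit and a p under 0.01 gave 1 that rose in place of 2, and a fold change over 2 gave 0 of either. For the differences of effect, library totals gave 3 higher and 4 lower from HFCFD2W to HFCFD8W+T10D in place of 1 and 9, 1 lower from there to HFCFD12W+T10W in place of 8, and 5 higher and 8 lower from HFCFD2W to HFCFD12W+T10W in place of 1 and 27, with that of *Etfdh* at 0.025. Upper quartile scaling gave 2 and 5, 3 lower, and 3 higher in the same order, RLE 2 higher in the first, DESeq2 2 higher in the first and 2 in the last, and no filter 0 higher in the first and 4 lower in the second. Of the *Cebpa* fl/fl differences from HFCFD2W to HFCFD8W+T10D, 4 were lower with library totals in place of 12. These shifts follow from the scaling itself where library totals are named, and for the others the cause was not tested.

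Leaving out each mouse gave 30 to 31 members that fell and 1 to 4 that rose in HFCFD12W+T10W (median -0.56 to -0.49), 6 to 11 and 1 to 2 in HFCFD8W+T10D (median -0.26 to -0.15), and 1 to 4 and 1 to 3 in HFCFD2W (median -0.05 to 0.02). The 3 rises of HFCFD12W+T10W became 1 without control replicate 2 or 5 or knockout replicate 2, 3 or 4, and the 1 rise of HFCFD8W+T10D became 2 without control replicate 1 or 5 or knockout replicate 4. The 3 falls of HFCFD2W became 1 without control replicate 2 or 3 or knockout replicate 2, 3 or 4, and its 2 rises became 1 without control replicate 1, 2, 3 or 5 or knockout replicate 2, 4 or 6. The differences of effect ran from 1 to 2 higher and 5 to 12 lower, from 0 to 0 and 2 to 13, and from 1 to 2 and 24 to 29 in the order above. From HFCFD8W+T10D to HFCFD12W+T10W there were 2 lower without control replicate 3 of either experiment 13 without knockout replicate 2 of HFCFD8W+T10D, 3 without its knockout replicate 3 or knockout replicate 2 or 5 of HFCFD12W+T10W, 4 without control replicate 5 of either, knockout replicate 4 of HFCFD8W+T10D or knockout replicate 3 of HFCFD12W+T10W, and 5 without control replicate 4 of HFCFD12W+T10W. From HFCFD2W to HFCFD8W+T10D there were 5 lower without knockout replicate 6 of HFCFD2W or control replicate 2 or knockout replicate 1 of HFCFD8W+T10D, and 2 higher without any of 9 mice. From HFCFD2W to HFCFD12W+T10W there were 2 higher without control replicate 1 of HFCFD2W, 4 of HFCFD8W+T10D or 4 or 5 of HFCFD12W+T10W. The *Cebpa* fl/fl differences ran from 5 to 9 higher and 8 to 14 lower, then from 4 to 9 and 0 to 0, with 4 higher in the latter without control replicate 3 of either experiment or control replicate 1 of HFCFD12W+T10W and 5 without its control replicate 5, and 5 higher in the former without control replicate 5 of either experiment. All 33 calls of HFCFD12W+T10W but 2, 7 of 9 of HFCFD8W+T10D and 2 of 5 of HFCFD2W stood without any 1 mouse.

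Replicate numbers were not taken to pair the mice. Same-number correlations of deviations over 2000 genes ran from -0.38 to 0.05, -0.10 to 0.16 and -0.06 to 0.22 in the 3 experiments. Mice with different numbers were not compared in this way, so these values cannot exclude a pairing. With the replicate block 1 member rose in HFCFD2W in place of 2 and 2 rose in HFCFD8W+T10D in place of 1, and the falls stayed within 1.5 times their number. At 7996123 to 10257347 counts a library, *Cpt1b*, and *Abcd2* in HFCFD2W, were too low for a firm statement.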

Other observations

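A pair of further genes of the pathway that changed less than 2-fold are given here, picked once their values were known, and both fell. Of the 11 regulators among these further genes, *Ppara* included, 7 fell and 0 rose in HFCFD12W+T10W with TMM. Of all genes tested 23.8% fell and 27.4% rose. With library totals 3 regulators fell and 2 rose, beside 962 and 7049 of 12463 genes. The 2 that rose were *Ppard* and *Esrra*, at log2 fold changes of 0.57 and 0.36. The part of any regulator in the values of the members was not tested. *Ppara*, the nuclear receptor known to drive fatty acid oxidation genes in liver, fell from 172 ± 19.8 to 87.9 ± 12.7 CPM in HFCFD12W+T10W, log2 fold change -0.93 ± 0.11 (SE), adjusted p = 2.2e-05, and from 108 ± 17.6 to 71.0 ± 6.82 CPM in HFCFD8W+T10D, log2 fold change -0.60 ± 0.12 (SE), adjusted p = 0.0058, also with library totals (adjusted p = 0.00061 and 0.0329). *Slc22a5*, the plasma membrane carnitine transporter, fell from 65.3 ± 12.4 to 33.0 ± 3.17 CPM in HFCFD12W+T10W, log2 fold change -0.94 ± 0.12 (SE), adjusted p = 3.96e-05, and also with library totals (adjusted p = 0.0011).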
